A study of Sus scrofa with 81 samples.

Results

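CA3 (NCBI gene 494016) encodes carbonic anhydrase 3, a cytosolic protein of skeletal muscle. It was taken by symbol from a table of 28061 genes. It was chosen by its FPKM values over all stages and their relation to MYH7, the slow myosin heavy chain, after birth, so the values of both genes are given as a description with their error and without a test. The selection named 2 genes, CA3 and MB, and 1 was found: MB is not analysed here. The samples were skeletal muscle of pigs of the strain labelled Landrance, untreated as far as the labels say, at 27 stages with 3 libraries each: 15 stages before birth (E33 to E105, 45 libraries) and 12 from birth on (D0 to D180, 36 libraries). E was read as the day of gestation and D as the day after birth. The muscle, the sex and the litter are not stated, nor is it said that each library is an animal of its own. The p-values therefore rest on differences between libraries that may be technical.

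Carbonic anhydrases speed up the reversible conversion of carbon dioxide and water to bicarbonate and a proton. CA3 is a member of weak catalytic activity that makes up a large part of the soluble protein of muscle, and in rats and humans it has long been used as a marker of slow-twitch fibres, which also carry MYH7. In rodents it is also abundant in adipocytes and liver. Fast-twitch fibres carry other myosin heavy chains, among them MYH4, and their own troponins, such as TNNT3 and TNNI2.

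Values are FPKM as the authors deposited them, that is, fragments scaled to transcript length and to the library's total. They summed to between 320339 and 452249 per library. The low values of the table placed the depth of single libraries between 0.683 and 1.41 times that of the median library. The tissue label was checked on 4 muscle genes over 81 libraries. ACTA1, skeletal actin, was lowest at E33 with 187.9 FPKM, had a median of 2639 FPKM and was highest at D60 with 25320.0 FPKM. CKM, muscle creatine kinase, was 8.98 FPKM at its lowest, also at E33, and 1095 FPKM at its median. DES, desmin, was nowhere under 208.5 FPKM and TTN, titin, nowhere under 97.2 FPKM.

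CA3 went through 4 phases. It was low at E33 and climbed until E55, and stayed at middle levels until E105, lower from E75 on than before. It was low again at D0, and climbed after birth, with a dip at D30, to its highest levels from D120 on. The mean of the highest stage was 886 times that of the lowest. In bulk tissue, fewer cells of a type and less RNA per cell cannot be told apart.

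At E40 the 3 libraries had 82.3, 64.8 and 92.3 FPKM of CA3, against 3.32, 3.42 and 3.54 FPKM at E33. The E40 mean was 23.3 times that of E33, and every E40 library lay above every E33 library. Markers of other cells were also higher at E40: summed FPKM had a median of 3928 at E40 and 674 at E33 for erythroid markers, 131.5 and 61.9 for endothelial markers, and 10710.0 and 4879 for fibroblast and tendon markers. Some muscle genes were higher too. MYH7 averaged 272 FPKM at E40 and 117 FPKM at E33, and CKM was at 6.97 and 3.42 in log2(FPKM + 1). The part of any of these cells in the CA3 difference, muscle fibres included, was not tested. CA3 was then 118 ± 32.4 FPKM at E45, 234 ± 67.2 FPKM at E50 and 655 ± 101 FPKM at E55 (SD, n = 3 each). The libraries of E50 all lay above those of E45, and the libraries of E55 above those of E50. From E55 to E70 the 12 libraries ran from 438 to 766 FPKM with a median of 570.3 FPKM. From E75 to E105 the 21 libraries ran from 296 to 648 FPKM with a median of 356 FPKM. One step between these stages stood clear of the libraries' spread: E75, with 383, 361 and 438 FPKM, lay below E70, with 507, 499 and 561 FPKM.

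At D0 the libraries had 19.6, 185 and 122 FPKM of CA3, against 358, 341 and 648 FPKM at E105. The groups did not overlap, and the D0 mean was 0.243 times that of E105. The difference was -2.47 on the log2(FPKM + 1) scale (SE 0.36), on which all log2 differences here are given. Every SE of a log2 difference rests on a spread pooled over all 81 libraries, so it understates the scatter at D0. The 3 D0 libraries differed widely among themselves, and replicate 1 was the lowest of the 36 postnatal libraries. Without D0 replicate 1 the difference was -1.51, and without D0 replicate 2 it was -3.09. At D9 the libraries had 772, 1443 and 1736 FPKM, against the 19.6, 185 and 122 FPKM of D0. Every D9 library was above every D0 library, and the log2 difference was 4.0 (SE 0.36), or 3.04 without D0 replicate 1.

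D20 followed with 1518, 1687 and 1339 FPKM. At D30 the libraries had 483, 629 and 268 FPKM, all below those of D20, and the D30 mean was 0.304 times the D20 mean. At D40 they had 968.5, 870.4 and 812 FPKM, all above those of D30. D60 averaged 954 ± 118 FPKM and D80 averaged 1076 ± 412 FPKM (SD, n = 3 each), and both overlapped the stage before. D100 had 2159, 1457 and 2010.0 FPKM. D120 had 3489, 3374 and 2252 FPKM, all above D100. From D120 to D180 the 12 libraries ran from 1820.0 to 3515 FPKM with a median of 2952 FPKM, and no step between these 4 stages stood clear of the spread. In all, 9 of the 26 steps between adjacent stages had no overlap, 6 to a higher and 3 to a lower level.

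**Figure D1:**
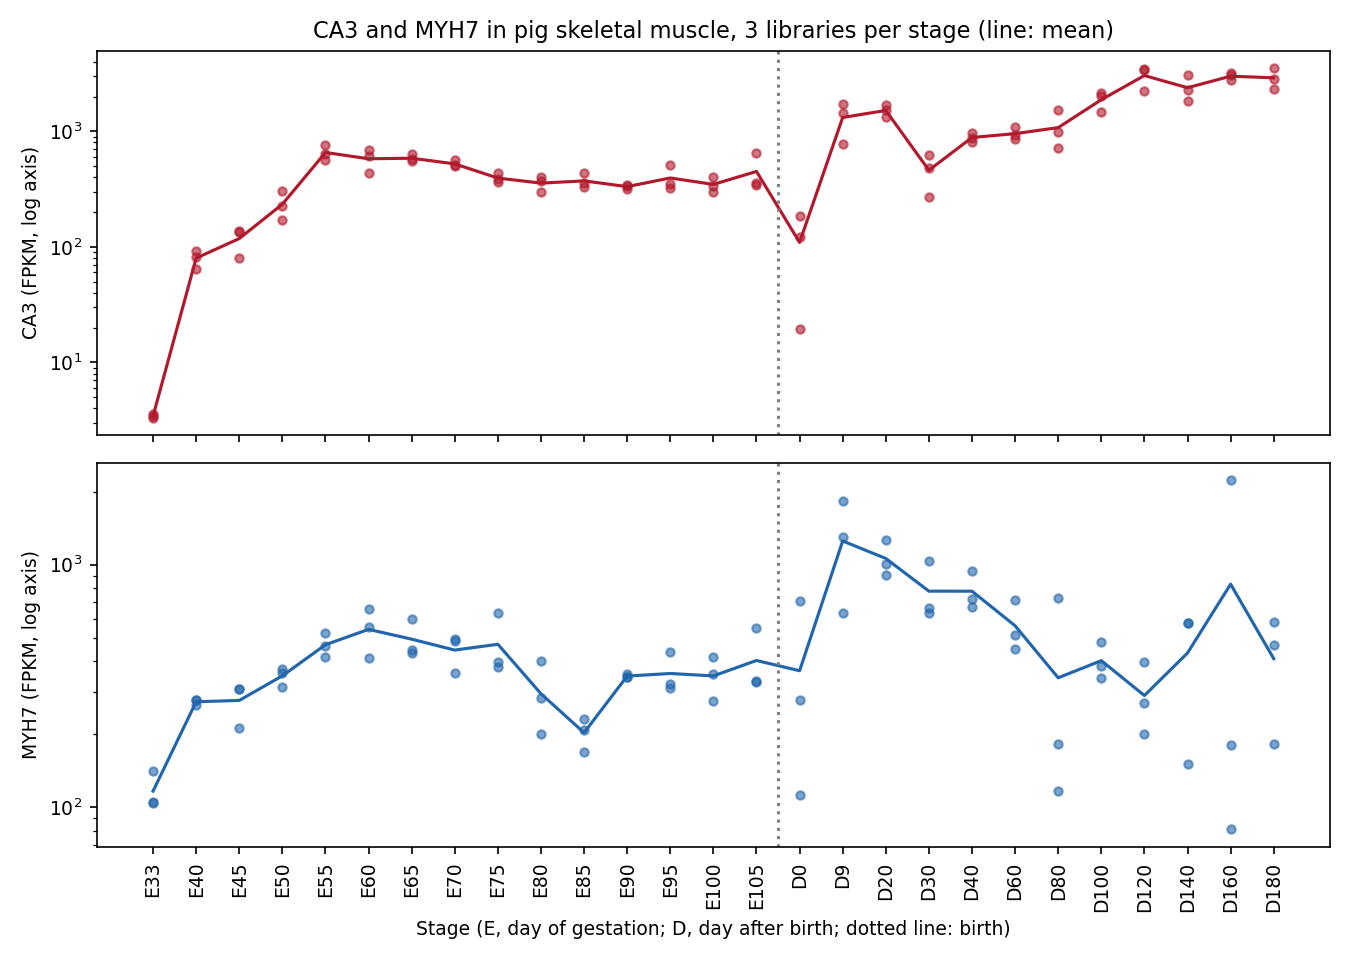
FPKM of CA3 (upper panel) and MYH7 (lower panel) in 81 libraries on a log axis, by stage; points are libraries, lines join stage means and the dotted line marks birth. CA3 runs from 3.43 FPKM at E33 to 3038 FPKM at D120 with lows at D0 and D30, while the 3 MYH7 points of D160 spread from 81.1 to 2232 FPKM.

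Ranked by mean, the top 4 stages were D120 (3038 ± 684 FPKM), D160 (2999 ± 203 FPKM), D180 (2903 ± 587 FPKM) and D140 (2383 ± 626 FPKM; SD, n = 3 each). Neighbours in this order mostly overlapped. Of the 26 pairs of neighbours, 4 had every library of the higher stage above every library of the lower: D40 over E55, E90 over E50, E50 over E45 and E40 over E33. D0, at 109 ± 83.7 FPKM, stood between E45 and E40, and D30, at 460.0 ± 181 FPKM, between E70 and E105. These places depend on the scaling. When each library was scaled by the median ratio of its genes, D30 stood above every prenatal stage, and D0 between E50 and E45. In the libraries' own order of genes, CA3 held rank 8957 to 9390 at E33, rank 103 to 168 at E105, rank 301 to 2331 at D0 and rank 13 to 17 at D160. Its share of the summed FPKM was 0.000965% at E33, 0.171% at E55, 0.0284% at D0 and 0.808% at D160.

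Over whole periods, CA3 averaged 1626 ± 1034 FPKM after birth (SD, n = 36) and 361 ± 195 FPKM before it (SD, n = 45). The log2 difference was 2.21 (SE 0.099), and 3.0 when each library was scaled by the median ratio of its genes. In FPKM the periods overlapped: 29 of the 36 postnatal libraries lay above the highest prenatal library, and the other 7 were the 3 of D0, the 3 of D30 and D80 replicate 1. Which libraries overlap can depend on the scaling. With the median-ratio scaling D30 averaged 638 ± 330, against 489.5 ± 71.7 at E55, the highest prenatal stage mean (SD, n = 3 each). Late fetal muscle (E95, E100, E105) had 397 ± 112 FPKM and early fetal muscle (E33, E40, E45) 67.0 ± 53.5 FPKM (SD, n = 9 each), a log2 difference of 3.49 (SE 0.21) with no overlap. Late postnatal muscle (D140, D160, D180) had 2761 ± 526.2 FPKM and early postnatal muscle (D20, D30, D40) 953 ± 478 FPKM (SD, n = 9 each). That log2 difference was 1.70 (SE 0.21), and the lowest late library, at 1820.0 FPKM, was above the highest early one, at 1687 FPKM.

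MYH7 shared the early fetal climb of CA3 and differed from it at some later fetal stages, around birth and after it. Its libraries, like those of CA3, did not overlap at E40 over E33, E50 over E45 and E55 over E50, where the log2 differences were 1.23, 0.35 and 0.42 for MYH7 and 4.17, 0.98 and 1.51 for CA3. MYH7 had 140.7, 104.6 and 104.8 FPKM at E33, where CA3 had under 4 FPKM. From E85 to E90 MYH7 went from a mean of 203 to 348 FPKM without overlap. CA3 averaged 372 and 332 FPKM at these stages, with overlap. At E75 CA3 lay clear below E70, where MYH7 overlapped. At D0 MYH7 had 113, 706.5 and 278 FPKM, against 333, 329.6 and 546 FPKM at E105, so the groups overlapped where those of CA3 did not. After birth MYH7 was highest at D9, with 632, 1299 and 1825 FPKM, and D20, with 909, 1008 and 1267 FPKM. It averaged 560.1 ± 140 FPKM at D60 and 402 ± 71.4 FPKM at D100 (SD, n = 3 each), and its libraries were wide apart at D80, D140, D160 and D180. Late postnatal muscle had 558 ± 660.5 FPKM of MYH7 and early postnatal muscle 872 ± 216 FPKM (SD, n = 9 each). The log2 difference was -1.27 (SE 0.33), opposite in sign to that of CA3.

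The ratio of CA3 to MYH7 FPKM shows the change of balance within each library. It was 0.0300 ± 0.00557 at E33, 1.41 ± 0.228 at E55, 1.10 ± 0.0793 at E105 and 0.292 ± 0.136 at D0 (SD, n = 3 each). In the 18 libraries from D80 to D180 it ran from 1.36 to 39.0 with a median of 6.17, and in the 15 libraries from D9 to D60 it ran from 0.407 to 1.90 with a median of 1.21. Of the 18 later libraries, 16 lay above the highest value of D9 to D60. The ratio was widest at D160, with 39.0, 1.37 and 15.4.

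The D160 libraries show this most plainly. CA3 was 3168, 3055 and 2773 FPKM in replicates 1, 2 and 3, a spread of 1.14-fold. MYH7 was 81.1, 2232 and 180.4 FPKM in the same libraries, a spread of 27.5-fold. Other slow-fibre genes followed MYH7: MYL2, the slow regulatory light chain, had 226.5, 6512 and 775 FPKM, and TNNT1, slow troponin T, had 29.4, 815 and 67.4 FPKM. MYH4, the fastest myosin heavy chain, went the other way, with 3561, 405 and 6071 FPKM. TNNT3, fast troponin T, had 2523, 899 and 2771 FPKM. CA3 thus had nearly the same level in a library rich in slow-fibre transcripts and in libraries rich in fast-fibre transcripts. The labels do not say from which muscle each of these libraries came.

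**Figure D2:**
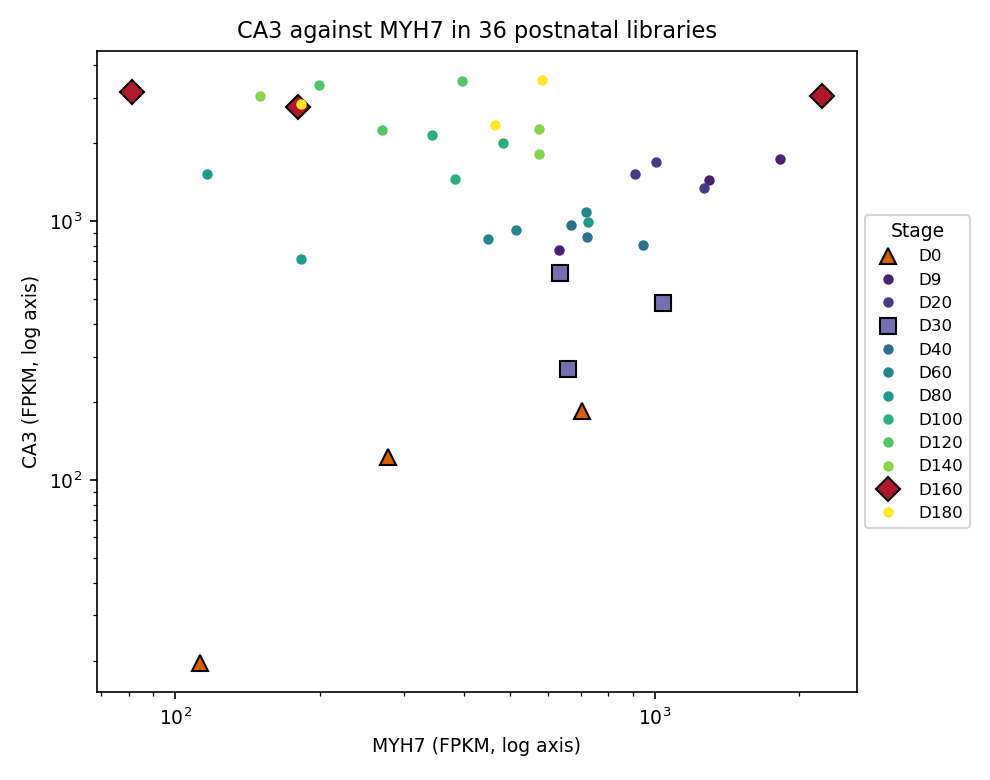
CA3 against MYH7 in the 36 postnatal libraries, both in FPKM on log axes, coloured by stage. The 3 libraries of D160 (red diamonds) lie at about the same height from 81.1 to 2232 FPKM of MYH7, and those of D0 (orange triangles) lie at the bottom, from 19.6 to 185 FPKM of CA3.

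Across samples, CA3 had no steady relation to MYH7 after birth and a positive one before it. Over the 12 postnatal stage means of log2(FPKM + 1), Pearson's r was -0.04 and Spearman's rho -0.28, and over the 36 postnatal libraries r was 0.04 and rho -0.25. Without D0, where postnatal CA3 was lowest, r was -0.53 over 11 stage means and -0.33 over 33 libraries. The deviations of postnatal libraries from their stage mean had r = 0.27 over 36 libraries and r = -0.003 without those of D0. Over the 15 prenatal stage means r was 0.85 and rho 0.86. Without E33, where both genes were lowest before birth, r was 0.62 over 14 stage means. The prenatal libraries also deviated together from their stage means, with r = 0.52 and rho = 0.51 over 45 libraries. The difference between the 2 periods was not tested. Values of a library share its depth and its dissection, so these correlations are descriptions.

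The other slow-fibre genes differed among themselves in their relation to CA3. The list holds 14 genes besides MYH7, with the slow troponins, light chains and calcium-handling genes, and like all lists here it was chosen with earlier results of these data known. Its median r with CA3 over the 12 postnatal stage means was -0.22, against 0.84 for 14 fast-fibre genes, -0.62 for 24 genes of muscle oxidative metabolism and -0.36 for all genes tested. The adipocyte markers, 13 genes, had a median of 0.59. Among fast-fibre genes TNNT3 had r = 0.92 with CA3 over these 12 stage means and 0.77 without D0. TNNI2, fast troponin I, had 0.88, or 0.84 without D0. MYH4 had 0.88, or 0.56 without D0, MYH1 0.44, or 0.27 without D0, and MYH2 -0.43, or -0.06 without D0. Among slow-fibre genes MYL2 had 0.09, or -0.56 without D0, TNNC1 0.13, or -0.68 without D0, CASQ2 -0.72 and MYOZ2 -0.83. Before birth, over 15 stage means, MYL2 had 0.90 and TNNT1 -0.28. Over the deviations of the 36 postnatal libraries the medians were 0.20 for slow-fibre, 0.34 for fast-fibre and -0.11 for all genes.

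In late against early postnatal muscle CA3 and most slow-fibre genes differed in opposite directions. A gene was called in a comparison when limma's test, adjusted by Benjamini-Hochberg over 14220 genes, gave p below 0.05 with a log2 difference of at least 1 in size. In this comparison 2.28% of all genes were called, 0.788% higher and 1.49% lower. Of the 14 slow-fibre genes 0 were higher and 11 lower in late postnatal muscle, with a median log2 difference of -1.20 against -0.05 over all genes tested. The lower genes numbered 10 with median-ratio scaling, 8 with quantile normalisation and 6 without D160 replicate 1. MYOZ2, a Z-disc protein of slow fibres, averaged 29.98 ± 44.8 FPKM late and 84.5 ± 33.1 FPKM early, and fell by 2.24 on the log2 scale (SE 0.34, limma adjusted p 2.5e-07). CASQ2, the calsequestrin of heart and slow fibres, averaged 2.61 ± 1.15 FPKM late and 17.8 ± 13.2 FPKM early, and fell by 2.15 (SE 0.15, limma adjusted p 1.2e-17; SD over 9 libraries each). MYL3 fell by 1.67, TNNC1 by 1.36 and TNNT1 by 1.33.

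Of the 14 fast-fibre genes 1 was higher and 0 lower, against 0.788% and 1.49% of all genes. This was PVALB, the calcium buffer parvalbumin, with 38.1 ± 24.4 FPKM late and 14.3 ± 11.5 FPKM early (SD, n = 9 each). Its log2 difference was 1.32 (SE 0.34, limma adjusted p 0.0012). The list's median log2 difference was 0.31. CA3's difference of 1.70 was larger in value than that of any fast-fibre gene, but its distance from PVALB was not tested. CA3 was chosen from these levels, and the early group includes its dip at D30. Of the 24 oxidative genes 4 fell and 0 rose, where 1.49% of all genes fell and 0.788% rose. CPT1B, which brings fatty acids into mitochondria, averaged 11.95 ± 4.31 FPKM late and 46.2 ± 23.0 FPKM early (log2 difference -1.77, SE 0.12, limma adjusted p 3.8e-19; SD, n = 9 each). COX4I1, COX7A1 and ACADVL were the other 3. COX7A1 and ACADVL missed the log2 threshold with median-ratio scaling, as did COX4I1, COX7A1 and ACADVL with quantile normalisation. COX7A1 and ACADVL were also not called when certain single libraries were left out, D160 replicate 1 among them.

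**Figure D3:**
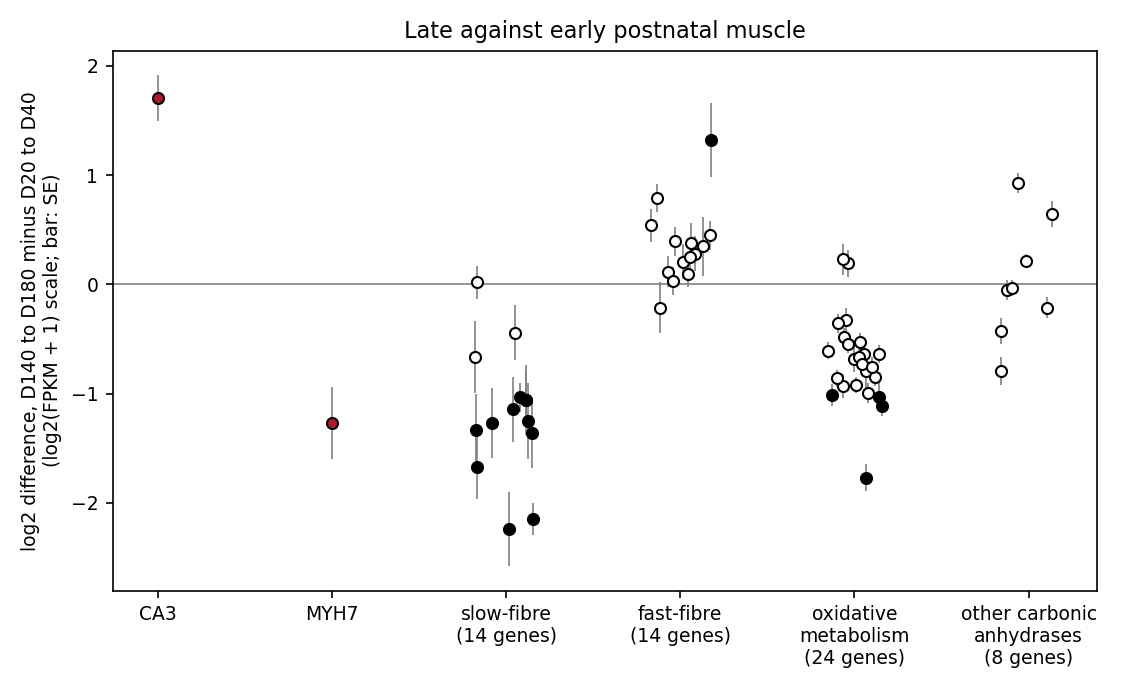
Log2 differences on the log2(FPKM + 1) scale, D140 to D180 minus D20 to D40, with SE, for CA3 and MYH7 (red, described without a test) and for the genes of 4 lists (black, called; white, not called). CA3 lies at 1.70, in value above all 14 fast-fibre genes but not tested against them, and 11 of the 14 slow-fibre genes are called lower.

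Adipocytes are another place of CA3 in rodents, and some of their markers were higher in the same late samples. The median log2 difference of the 13 markers tested was 0.09, against -0.05 over all genes tested. Of 13 adipocyte markers tested 5 were called higher and 0 lower, against 0.788% and 1.49% of all genes. The 5 were SCD, a fatty acid desaturase, THRSP, PLIN1, CIDEA and CIDEC. SCD averaged 114 ± 83.4 FPKM late and 8.50 ± 12.5 FPKM early (log2 difference 3.96, SE 0.34, limma adjusted p 5.7e-15; SD, n = 9 each). The summed FPKM of the 14 markers ran from 279.8 to 833 in late and from 267 to 525 in early postnatal libraries, and the 2 ranges overlapped. At D0 the sum was 195 to 313 FPKM, against 299.7 to 328 FPKM at E105. The 13 markers had a median r with CA3 of 0.68 over the 27 stage means, 0.59 over the 12 postnatal stage means and -0.03 over deviations of postnatal libraries from their stage mean. ADIPOQ, adiponectin, had 0.90 and PLIN1 0.82 over the 12 postnatal stage means. Other markers went the other way, with PNPLA2 at -0.87, LIPE at -0.562, PCK1 at -0.355, LPL at -0.286 and FABP4 at -0.108. The part of adipocytes in the CA3 level was not tested. The 8 hepatocyte markers summed to 18.7 to 54.7 FPKM in late and 38.5 to 124 FPKM in early postnatal libraries.

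Over the 27 stage means the median r with CA3 was 0.76 for fast-fibre genes, 0.68 for adipocyte markers, 0.33 for oxidative genes, 0.13 for slow-fibre genes and -0.57 for all genes tested. After birth against before it, 26.6% of all genes were called, 4.02% higher and 22.6% lower, and the median gene lay at -0.55. All 14 fast-fibre genes were higher after birth (11 with quantile normalisation), with a median log2 difference of 3.48. MYH4 averaged 3229 ± 1697 FPKM after birth (SD, n = 36) and 62.5 ± 107 FPKM before it (SD, n = 45), a log2 difference of 6.75 (SE 0.13, limma adjusted p 1.7e-49). Of the 14 slow-fibre genes 2 rose, PLN and MYL3, and 3 fell, CASQ2, MYH7B and CSRP3, with a median of -0.03. With median-ratio scaling 7 rose and 2 fell. Of the 24 oxidative genes 12 rose and 0 fell, or 23 and 0 with median-ratio scaling.

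In late against early fetal muscle 15.4% of genes were called, 6.07% higher and 9.32% lower. Of the fast-fibre genes 13 of 14 rose, of the oxidative genes 18 of 24, and of the slow-fibre genes 4 rose and 1 fell. In D9 against D0 muscle, where CA3 differed by 4.0, 10.4% of genes were called, 4.99% higher and 5.44% lower, and 9 fast-fibre genes rose and 0 fell. ACTN3, the actinin of fast fibres, averaged 880.3 ± 127 FPKM at D9 and 14.2 ± 7.78 FPKM at D0 (log2 difference 5.98, SE 0.32, limma adjusted p 8.1e-23; SD, n = 3 each). Of the slow-fibre genes 4 rose and 3 fell in this step, or 8 and 1 with median-ratio scaling.

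At D0, where CA3 was low, the fibre lists were near all genes in their median. The log2 difference of D0 from E105 had a median of -0.03 for fast-fibre, -0.17 for slow-fibre and -0.20 for all genes. In D0 against E105 muscle 12.2% of genes were called, 2.78% higher and 9.38% lower. Of the 14 fast-fibre genes 1 fell, ACTN3, and 0 rose, counts near those shares. Before adjustment 5 of these genes had a limma p below 0.05, as did 6 of the 14 slow-fibre genes. Of the slow-fibre genes 2 rose, MYL3 and MYOZ2, and 1 fell, MYL2, again near the share of all genes that fell. Each of these 3 calls was lost when certain single libraries were left out: MYL3 without E105 replicate 1, E105 replicate 2 or D0 replicate 2, MYOZ2 without E105 replicate 1 or D0 replicate 3, and MYL2 without any 1 of the E105 libraries or D0 replicate 1. MYL2 was also not called with median-ratio scaling, quantile normalisation, no filter or only the compared stages in the fit. Of the oxidative genes 6 rose and 0 fell. CKMT2, the mitochondrial creatine kinase, averaged 256 ± 46.9 FPKM at D0 and 37.5 ± 7.18 FPKM at E105 (log2 difference 2.74, SE 0.24, limma adjusted p 7.6e-15; SD, n = 3 each). FABP3, the fatty acid carrier of heart and muscle, rose by 1.74. Markers of blood and vessels were lower in the D0 samples than at E105. Summed FPKM of 10 erythroid markers was 321 to 393 at D0, against 2378 to 3443 at E105. That of 12 endothelial markers was 96.3 to 112, against 308 to 318.5. From D120 to D180, where CA3 was highest, the medians of these sums were 322.2 and 106 FPKM. The part of these cells in the CA3 level was not tested.

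The genes whose course was most like that of CA3 were named by Pearson's r with CA3 over the 27 stage means of log2(FPKM + 1), among 6747 genes with at least 10 FPKM in some stage. FSD2, a fibronectin and SPRY domain protein, came first with r = 0.974. CARNS1, carnosine synthase, had 0.920 and STBD1, a glycogen-binding protein, had 0.909. TNNT3 (0.908), TNNI2 (0.901), BIN1 (0.890), PRKAG3, a regulatory subunit of AMP-activated kinase (0.886), CKM (0.876) and PHKG1, the catalytic subunit of muscle phosphorylase kinase (0.874), were also among the first 10. For comparison, MYH7 had r = 0.531. Without E33 and D0, low points of CA3 (an alternative chosen after seeing the data), FSD2 had 0.947 and CARNS1 0.926, and 6 of the first 10 remained among the first 10. CKM dropped to 0.822.

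STBD1 shared the low of CA3 at D0 but not the one at D30. It had 9.14, 17.3 and 14.3 FPKM at D0, against 51.4, 51.3 and 66.3 FPKM at E105, with no overlap. It had 78.1, 90.9 and 58.2 FPKM at D30, against 58.8, 101.6 and 66.5 FPKM at D20, and these overlapped. FSD2 overlapped between D0 and E105, with 7.15, 20.9 and 20.6 FPKM at D0 and 19.4, 17.6 and 30.4 FPKM at E105. CKM did the opposite of CA3 at D30, where its mean was the highest of all stages.

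**Figure D4:**
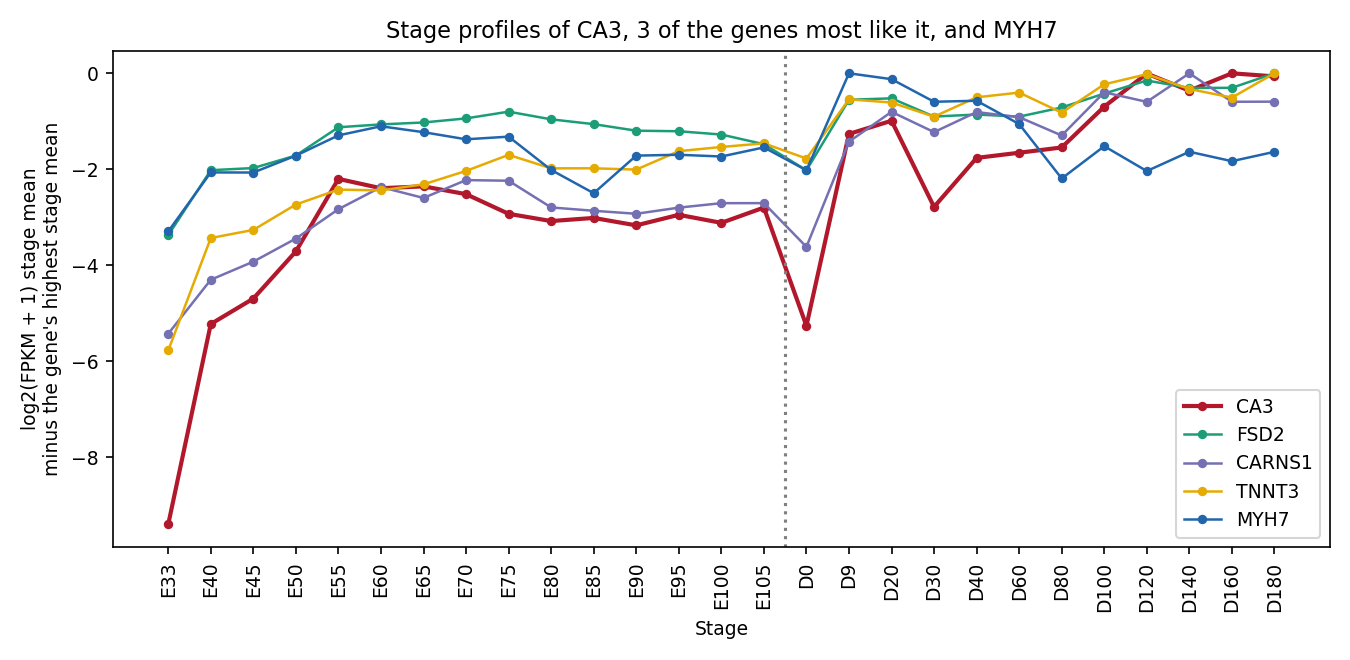
Stage means of log2(FPKM + 1) minus the gene's own highest stage mean, for CA3, for FSD2, CARNS1 and TNNT3, which are among the 10 genes most like it, and for MYH7. All but MYH7 reach their top after D80, and CA3 moves over the widest range.

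Within stages the likeness was less settled. Over deviations of the 36 postnatal libraries from their stage means, CAP2, an actin-binding protein, came first with r = 0.818, then LSMEM1 with 0.764 and DMPK, the kinase of myotonic dystrophy, with 0.757. These values rested on the spread of the 3 D0 libraries. Without them, also an alternative chosen after seeing the data, CAP2 had r = 0.513, LSMEM1 0.507 and DMPK 0.501, and 0 of the first 10 genes remained among the first 10, which were then led by SH3BGR with 0.760, GAMT, a creatine synthesis enzyme, with 0.688 and TPM2, a tropomyosin, with 0.679.

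CA3 outweighed the rest of its family. In the order of the RefSeq annotation (Sscrofa11.1, used for names and order only) it lies between CA2 and CA1, with CA13 next, and these neighbours were low: over 81 libraries CA2 was at most 4.04 FPKM, CA13 at most 2.39 FPKM and CA1 at most 0.119 FPKM. Of 15 carbonic anhydrase genes in the table, CA3 included, CA3 held 13.3% to 15.9% of the summed FPKM at E33, 83.5% to 85.9% at E40 and 95.7% to 97.2% at E105. It held 55.3% to 86.0% at D0 and 99.25% to 99.4% at D160. Of the 14 others 8 passed the filter of 1 FPKM in 3 libraries.

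Of these 8, CA14, a membrane enzyme with its active site outside the cell, rose after birth. It averaged 11.1 ± 3.94 FPKM after birth (SD, n = 36) and 0.441 ± 0.355 FPKM before it (SD, n = 45), a log2 difference of 3.03 (SE 0.055, limma adjusted p 1.5e-50). At D0 it had 3.90, 10.2 and 6.16 FPKM, against 0.918, 0.493 and 1.91 FPKM at E105, a log2 difference of 1.85 (SE 0.20, limma adjusted p 1.3e-11). It was thus higher at D0, without overlap, where CA3 was lower. Its top was at D20 with 17.2 ± 5.08 FPKM (SD, n = 3), and at D160, where CA3 was near its top, it had 9.63, 11.2 and 7.58 FPKM.

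CA9, a membrane enzyme known for its induction by low oxygen, stood out at D0. It had 8.94, 14.2 and 7.46 FPKM at D0, against 1.75, 1.66 and 3.13 FPKM at E105 (log2 difference 1.80, SE 0.16, limma adjusted p 8.2e-15). At D9 it had 1.16, 1.06 and 1.08 FPKM, and the log2 difference of D9 from D0 was -2.37 (SE 0.16, limma adjusted p 6.2e-19). CA9 was thus high at the stage where CA3 was low, with no overlap in any of these pairs.

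CA4, an enzyme tied to the outer membrane and known from capillary walls, built up before birth. It averaged 7.41 ± 1.3 FPKM in late fetal and 0.314 ± 0.338 FPKM in early fetal muscle (SD, n = 9 each), with a log2 difference of 2.70 (SE 0.13, limma adjusted p 1.3e-26), and it was listed at 0 in all 3 libraries of E33. At D0 it had 1.74, 5.11 and 4.61 FPKM, against 8.35, 7.67 and 8.57 FPKM at E105. That log2 difference of -1.02 was called (SE 0.23, limma adjusted p 0.00019), but with median-ratio scaling it was -0.77 and was not.

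CA11, a carbonic anhydrase-related protein without enzyme activity, ran against CA3 before birth. Its lowest stage mean was at D0, with 0.348 FPKM, where CA3 was also low. Over the 12 postnatal stage means CA11 had r = 0.585 with CA3. It was highest at E33, with 14.2, 13 and 9.59 FPKM, and averaged 1.39 ± 0.611 FPKM after birth (SD, n = 36) and 5.71 ± 2.80 FPKM before it (SD, n = 45). The log2 difference of -1.42 (SE 0.047, limma adjusted p 6.0e-37) was -0.85 with median-ratio scaling and then not called. In late against early fetal muscle CA11 fell by 1.48 and CA10, its inactive relative, by 1.10, or 0.864 lower with median-ratio scaling. In late against early postnatal muscle, where 2.28% of all genes were called, limma called 0 of the 8 other carbonic anhydrases, a count near that share, although 6 had an unadjusted p under 0.05, and 1 was called higher with median-ratio scaling. CA2 averaged 1.70 ± 0.754 FPKM late and 0.672 ± 0.169 FPKM early, and CA5B, the mitochondrial form, averaged 2.11 ± 0.821 FPKM late and 0.599 ± 0.232 FPKM early (SD, n = 9 each).

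**Figure D5:**
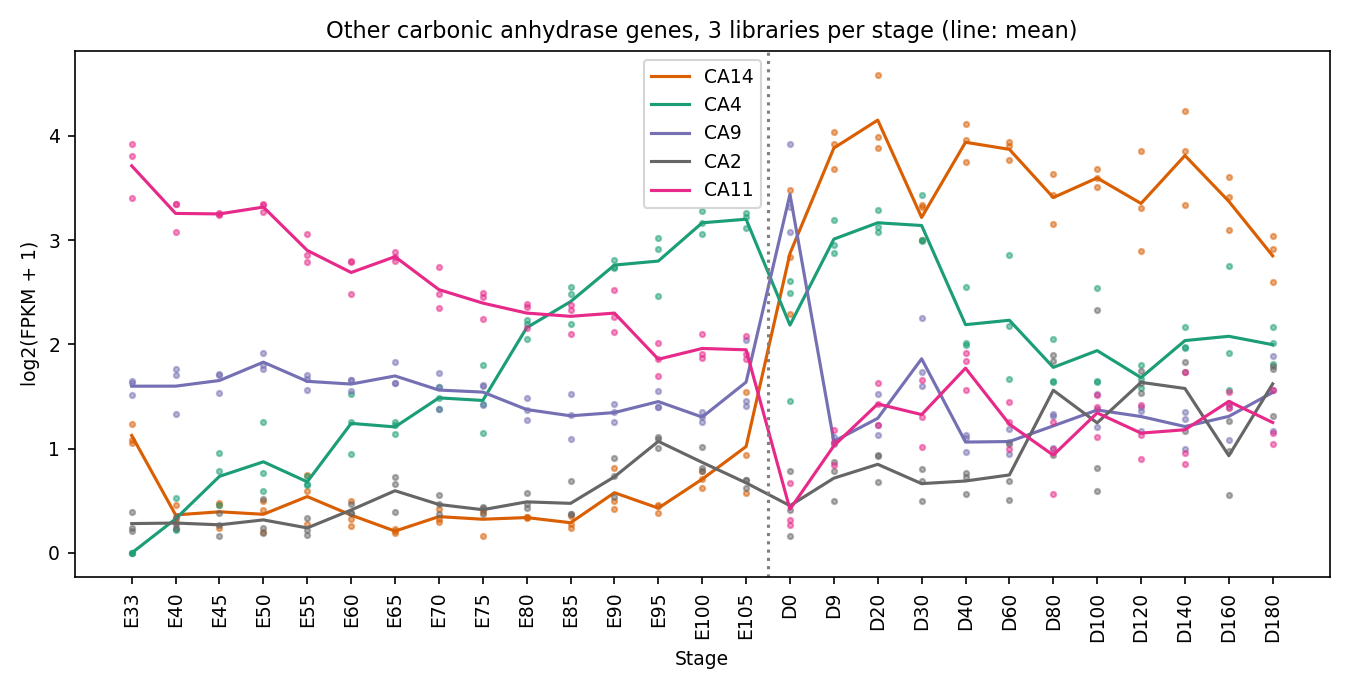
Log2(FPKM + 1) of 5 other carbonic anhydrase genes by stage; points are libraries, lines join stage means and the dotted line marks birth. CA14 is high from D0 on, CA9 peaks at D0 with 10.2 FPKM, CA4 builds up to 8.20 FPKM at E105 and CA11 declines from E33.

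The partners of carbonic anhydrases in moving acid, bicarbonate, lactate and gas were counted in the same way. Of 16 such genes tested, 2 rose and 2 fell after birth against before it, where 4.02% of all genes rose and 22.6% fell. SLC16A3, the lactate exporter of glycolytic fibres, rose by 1.37 and AQP1 by 1.04 (not called without the libraries of D0), while SLC4A3 and SLC4A2, chloride-bicarbonate exchangers, fell by 2.77 and 1.301 (SLC4A2 by 0.64, below the threshold, with median-ratio scaling). In late against early postnatal muscle, where 0.788% of all genes rose and 1.49% fell, 0 of the 16 rose and 3 fell, with AQP4, a water channel, at -1.92, SLC16A3 at -1.21 and SLC4A7, a sodium-bicarbonate cotransporter, at -1.14. SLC16A3 was not called without D160 replicate 2. CA3 also binds glutathione, and of 24 antioxidant and glutathione genes 5 rose and 1 fell after birth (4.02% and 22.6% of all genes), with SOD2 higher by 2.09, and 1 rose and 2 fell in late against early postnatal muscle (0.788% and 1.49% of all genes). Of 22 calcineurin, MEF2, NFAT and PGC-1 regulators, which are tied to slow-fibre gene activity, 2 rose and 0 fell in late against early postnatal muscle (0.788% and 1.49% of all genes), PPP3R1 by 1.37 and PPP3CB by 1.23, both subunits of calcineurin.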

How the data were processed

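Per the labels' protocols, ribosomal RNA was removed from total RNA and the libraries were paired-end and strand-specific. The submitters' processing notes name Trimmomatic, HISAT2 2.0.4 and StringTie 1.3.1; the genome build is not given in the sources used here. The authors deposited FPKM per gene, without counts. These are shares of a library, so a few abundant transcripts lower all others. Steps of low values gave the relative depth of libraries (149 of 150 checked pairs within 0.05 log2), but no counting interval was computed.

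Of 28325 entries 264 repeated a gene ID with identical values and were dropped. No 2 libraries were identical. All 22175 NCBI gene IDs were found in a RefSeq gene table. A gene was tested if 3 or more libraries had 1 FPKM or more (14220 kept, 13841 removed). The limma 3.58.1 fit in R 4.3.3 held 27 stage means over 81 libraries of log2(FPKM + 1), with 54 residual degrees of freedom, a variance trend and two-sided tests, and was tested on simulated data. Periods compare means of stage means, so a fold computed from the printed FPKM means can differ. This scale understates changes near 1 FPKM. Tables and plots used Python 3.11.15, numpy 2.4.6, pandas 2.3.3 and matplotlib 3.10.9.

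CA3, the 12 gene lists counted and the comparisons were chosen with earlier results of these data known. Named genes are the called list members with the largest differences, all carbonic anhydrases tested, the first 10 by likeness to CA3 (1 of them is not reported here), and fibre genes set beside it. The lists chosen for MB were not used here. Genes with near-identical copies, such as the myosin heavy chains and haemoglobins, may share reads. Alternatives were a pseudocount of 0.1, other filters, median-ratio scaling, quantile normalisation, no trend, a replicate block, only the compared stages, and each library left out.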

Additional observations from a re-analysis of the deposited data

Results flagged for a closer look

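Among the 8 sets of 9 libraries checked for a library far from the others, MYH7 in late postnatal muscle was the one that stood out. D160 replicate 2 had 2232 FPKM, against 582 FPKM in the next highest library of that group. Chance flags about 1 in 20 such sets. In the same library CA3 was 3055 FPKM, within the 1820.0 to 3515 FPKM of its group. Without D160 replicate 2 the count of slow-fibre genes lower in late postnatal muscle was 12, against 11 with it.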

How the results depend on the processing

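The direction of the CA3 difference was kept in all 5 comparisons under every alternative tried. With a pseudocount of 0.1 6639 genes were called after against before birth (3781 with a pseudocount of 1), 3726 in late fetal muscle (2188), 3531 at D0 (1729), 2775 at D9 (1482) and 898 in late postnatal muscle (324). Median-ratio scaling gave 2412 and quantile normalisation 2211 for postnatal against prenatal. Median-ratio scaling moved the postnatal against prenatal difference to 3.0 for CA3 and 1.32 for MYH7, and quantile normalisation moved D9 against D0 to 4.54 for CA3. The median gene lay at -0.02 with median-ratio scaling in the first comparison and at -0.55 without. Without D0, an alternative chosen after seeing the data, postnatal against prenatal was 2.56 for CA3.

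Leaving out 1 library gave -3.09 to -1.51 for CA3 and -1.14 to 0.18 for MYH7 in D0 against E105, where MYH7 turned positive without D0 replicate 1, and 3.04 to 4.63 for CA3 in D9 against D0. Genes called ranged over 3733 to 3826, 2146 to 2238, 1550.0 to 2092, 1274 to 1835 and 298 to 364 in the 5 comparisons. The postnatal r of CA3 and MYH7 had no stable sign. Over stage means it was -0.04, against 0.12 with median-ratio scaling, 0.20 with quantile normalisation, -0.53 without D0 and -0.13 without the stages D9 and D20, a choice made after seeing the data. Over libraries it was 0.04, against 0.21 with quantile normalisation, -0.33 without D0 and -0.16 without the 2 libraries farthest from the median MYH7. Over deviations it was 0.27, against -0.003 without D0. The called list genes with the largest differences in each list and comparison were followed under other processing. Of their 1422 values 1380 kept their call and 42 did not, and 0 changed sign. The cause of these shifts was not tested.

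The replicate numbers did not pair the libraries: deviations of libraries with the same number had a median r of 0 (-0.487 to 0.412), and 28 of 81 libraries were closest to their own number. With a replicate block the genes called were 3781, 2188, 1727, 1481 and 324, and the CA3 differences were 2.21, 3.49, -2.47, 4.0 and 1.70. All 173 values of the list genes followed under other processing kept their call with this block. Alternatives for MB gave no value, since it is not analysed here.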
